A study of Homo sapiens with 9 samples.

Results

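The 10 genes described here encode the regulators that hand the cell cycle programme from S phase to G2 and mitosis. They are the subunits LIN9, LIN37, LIN52 and LIN54 of the MuvB core, the transcription factors B-MYB (MYBL2), A-MYB (MYBL1) and FOXM1, and the pocket proteins p107 (RBL1), p130 (RBL2) and RB (RB1). They were chosen by gene name, and each name matched 1 row of a table of 58735 genes. All 10 were among the 15232 genes with enough counts to be tested. The samples came from the human high-grade serous ovarian cancer line HEYA8, of a genotype labelled WT, after 24 h with compound 32, with sunitinib, a drug that blocks many receptor tyrosine kinases, or with an equal volume of DMSO, the solvent control. Each treatment had 3 libraries of polyadenylated RNA, and all 9 libraries carry the same batch label. No source used here gives the doses, the structure of compound 32 or its relation to sunitinib. The study addresses DNA repair and the joint action of sunitinib and cisplatin, although no sample here is labelled as given cisplatin, and the effect of compound 32 on the transcriptome.

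In quiescent and early G1 cells the MuvB core binds p130 or p107 together with E2F4 or E2F5 and a DP partner, and this DREAM complex represses cell cycle genes. When the pocket proteins are phosphorylated, DREAM comes apart and MuvB binds B-MYB instead, and FOXM1 later joins it on the promoters of G2/M genes. LIN54 is the subunit that contacts DNA, at a short element named CHR. MYBL2 and RBL1 are themselves E2F-regulated genes, whereas p130 is the pocket protein that accumulates in resting cells. RB acts beside this switch, mainly on the activator E2F proteins.

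Expression was measured as raw read counts per gene and is given as CPM, the count of a gene relative to the total of its library after TMM scaling. Library totals were 15742908 to 17045113 counts for compound 32, 15498101 to 18006171 for sunitinib and 15585347 to 16948191 for DMSO. Sunitinib replicate 3 stood apart, with a Pearson correlation of log2 CPM across genes of at most 0.981 with its group, against at least 0.992 for every other pair of replicates. In it 83 ribosomal protein genes took 6.97% of the counts, where they took 3.71 to 4.53% in the other 8 libraries. Results for sunitinib are therefore given with and without it. Among markers listed for the line, KRT8, KRT18, PAX8, VIM and CD44 were abundant, while EPCAM, KRT19, CDH1, MUC16 and MSLN reached at most 2.54 CPM in any library. The 5 leukocyte markers summed to at most 1.11 CPM in any library, and the 4 fibroblast markers to 2.52 to 3.77 CPM for compound 32, 1.11 to 2.08 CPM for sunitinib and 1.69 to 1.93 CPM for DMSO. The endothelial markers PECAM1, VWF and CDH5 summed to 5.44 to 6.14 CPM for compound 32, 13.5 to 17.4 CPM for sunitinib and 7.39 to 10.2 CPM for DMSO, mostly from CDH5, and their part in the results was not tested.

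Promoter sequences were taken from RefSeq (build GRCh38.p14), where 8 of the 10 members had at least 1 window of 250 bases before to 50 after a transcript start. Only 6 had such a start within 1000 bases of the annotated gene start. The single RB1 window had its start 172724 bases away. The windows of MYBL2 and RBL1 and the first of RBL2 are shown because MYBL2 differed most between compound 32 and sunitinib, and RBL1 and RBL2 are the pocket protein genes that went opposite ways under sunitinib. They are printed 5′ to 3′ on the gene's own strand, with capitals for the letters searched on both strands. These were CHR (TTTGAA or TTCGAA), E2F (TTTCCCGC, TTTGGCGC, TTTCGCGC or TTTGCCGC), B-MYB (AACGG) and forkhead (TAAACA). TTGGCGGG, a further E2F-like element, was added after the MYBL2 window had been read.
MYBL2, chromosome 20, 43666864 to 43667163, plus strand: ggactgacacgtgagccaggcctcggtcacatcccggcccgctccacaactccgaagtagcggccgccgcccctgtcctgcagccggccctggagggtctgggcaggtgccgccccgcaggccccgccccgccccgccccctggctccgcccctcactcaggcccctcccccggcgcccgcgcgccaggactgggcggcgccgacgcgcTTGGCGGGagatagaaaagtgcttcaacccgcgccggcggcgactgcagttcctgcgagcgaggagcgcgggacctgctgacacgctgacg
RBL1, chromosome 20, 37095948 to 37096247, minus strand: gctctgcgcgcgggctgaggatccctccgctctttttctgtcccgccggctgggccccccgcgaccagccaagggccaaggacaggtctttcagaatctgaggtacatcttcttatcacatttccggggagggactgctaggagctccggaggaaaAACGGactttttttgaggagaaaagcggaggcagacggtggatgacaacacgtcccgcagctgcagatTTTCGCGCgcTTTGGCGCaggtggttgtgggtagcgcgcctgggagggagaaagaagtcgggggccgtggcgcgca
RBL2, chromosome 16, 53434221 to 53434520, plus strand: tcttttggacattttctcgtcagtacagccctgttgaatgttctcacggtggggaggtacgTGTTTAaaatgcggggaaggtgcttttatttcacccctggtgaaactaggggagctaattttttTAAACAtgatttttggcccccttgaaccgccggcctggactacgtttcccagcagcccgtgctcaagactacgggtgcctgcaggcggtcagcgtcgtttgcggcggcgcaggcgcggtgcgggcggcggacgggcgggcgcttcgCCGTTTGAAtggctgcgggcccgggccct

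With the transcript start as base 0, the MYBL2 window held TTGGCGGG at bases -41 to -34, a sequence found in 1.2% of the 35116 RefSeq windows of the same length. The RBL1 window held E2F letters at bases -26 to -19 and again at -16 to -9, and B-MYB letters at -94 to -90. E2F letters occurred in 3.31% of all windows and B-MYB letters in 19.7%. The RBL2 window shown, the first of 2, held forkhead letters at -189 to -184 on the reverse strand and at -125 to -120, which 12.3% of windows contain. Just after its start it held B-MYB letters at bases 21 to 25 on the reverse strand, overlapping CHR letters at 24 to 29, and CHR letters occurred in 16.4% of windows. The second RBL2 window, at 53435369 to 53435668, held forkhead letters at bases -1 to 4 on the reverse strand and is not printed. Elsewhere, B-MYB letters lay at -38 to -34 on the reverse strand of another LIN9 window, CHR letters lay in 1 of 3 windows of LIN9, in both windows of LIN54 and in 1 of 2 windows of LIN37, and the LIN52 window held E2F letters at -25 to -18. Both LIN54 windows also held TTGGCGGG, at -92 to -85 and at -81 to -74 from their own starts. These windows, at 83010774 to 83011073 and at 83010785 to 83011084, overlap. Their CHR letters and TTGGCGGG are thus the same bases counted from different starts. Those starts lie 2103 and 2092 bases from the annotated start of the gene. A match describes letters and not a bound site.

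In the deposited table (GRCh38, GENCODE release 29), MYBL2 (ENSG00000101057) lies on chromosome 20 from 43667019 to 43716496 and RBL1 (ENSG00000080839) on the same chromosome from 36996349 to 37095995. RBL2 (ENSG00000103479) spans 53433977 to 53491649 on chromosome 16 and FOXM1 (ENSG00000111206) spans 2857681 to 2877155 on chromosome 12. RB1 (ENSG00000139687) is on chromosome 13 from 48303726 to 48599436, and MYBL1 (ENSG00000185697) on chromosome 8 from 66562175 to 66614247. The MuvB genes lie apart, LIN9 on chromosome 1, LIN54 on chromosome 4, LIN52 on chromosome 14 and LIN37 on chromosome 19. Per kilobase of gene length, the mean level in DMSO was 59.5 CPM for FOXM1, 44.9 for MYBL2, 21.5 for RB1, 14.9 for MYBL1, 9.19 for RBL1 and 5.37 for RBL2. The MuvB members were scarcer on this scale, with 4.46 CPM per kilobase for LIN54, 3.36 for LIN9, 2.84 for LIN52 and 0.268 for LIN37. RBBP4, a MuvB subunit that is not a member, had 139.7 CPM in DMSO and was not put on this scale.

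Compound 32 raised B-MYB transcripts and lowered FOXM1 transcripts slightly, whereas sunitinib lowered both. MYBL2, which with MuvB switches on G2/M genes, had 264, 273 and 282 CPM with compound 32, 47.3, 52.0 and 49.2 CPM with sunitinib and 127, 126 and 121 CPM with DMSO. No library of one treatment overlapped another. Its log2 fold change was 1.13 ± 0.06 (SE) for compound 32 against DMSO (edgeR quasi-likelihood test, Benjamini-Hochberg adjusted p = 4.25e-07) and -1.33 ± 0.06 for sunitinib against DMSO (edgeR adjusted p = 8.51e-08), that is 2.19-fold and 0.397-fold the DMSO level. In bulk RNA, fewer cells in a cell cycle phase and less RNA per cell cannot be told apart. MYBL1, a close relative best known from male germ cells, had 178, 182 and 167 CPM with compound 32, 51.0, 50.9 and 53.7 CPM with sunitinib and 116, 103 and 105 CPM with DMSO. It followed the same order without overlap, at 0.70 ± 0.07 for compound 32 (edgeR adjusted p = 3.1e-05) and -1.06 ± 0.07 for sunitinib (edgeR adjusted p = 7.03e-07).

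FOXM1, the forkhead activator of the mitotic programme, had 240.2, 251 and 250.1 CPM with compound 32, 158, 164 and 136 CPM with sunitinib and 289, 292 and 293 CPM with DMSO. All 3 compound 32 libraries were below the DMSO libraries, and the sunitinib libraries were lower still. The log2 fold change under sunitinib was -0.94 ± 0.07 (edgeR adjusted p = 2.75e-06), and -0.86 ± 0.04 without sunitinib replicate 3. Under compound 32 it was -0.24 ± 0.07 (edgeR adjusted p = 0.0375), 0.848-fold the DMSO level. That call was lost when any 1 of the 6 compound 32 or DMSO libraries was left out, with edgeR adjusted p of 0.0897 to 0.128 and values of -0.25 to -0.22, and it was held without sunitinib replicate 3 (edgeR adjusted p = 3.27e-07).

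**Figure D1:**
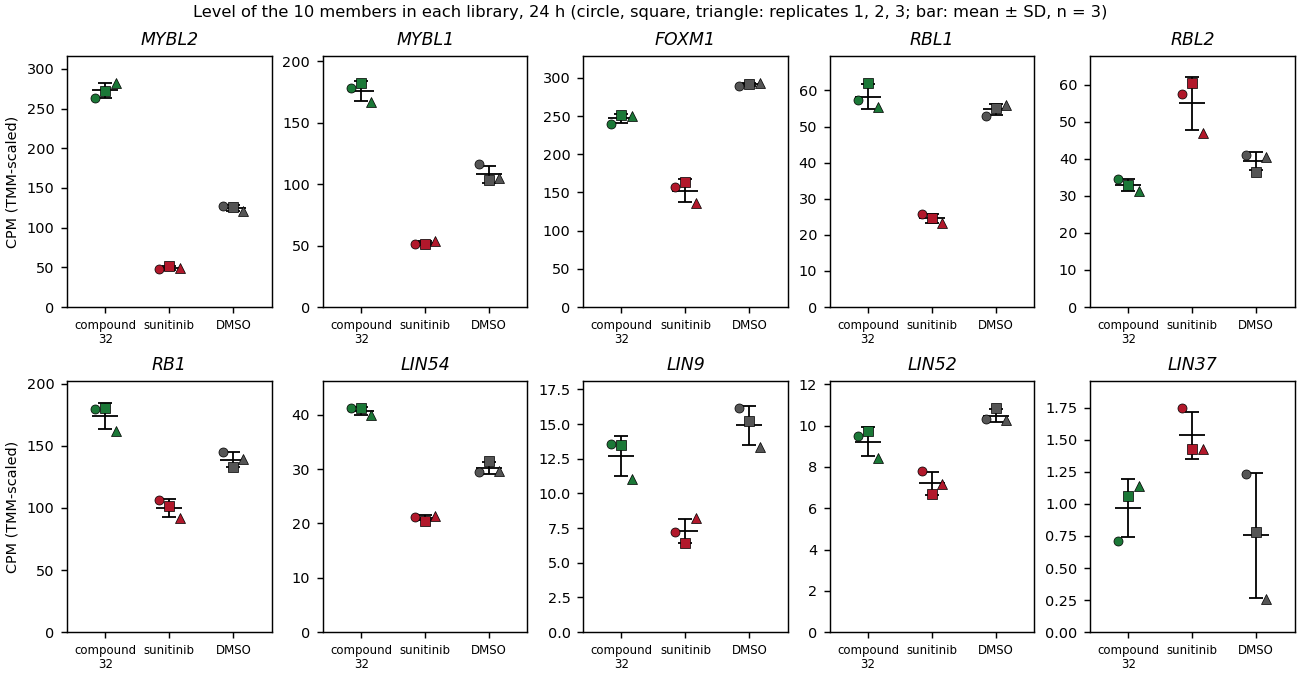
CPM of each of the 10 genes (y axis, from 0, TMM-scaled) in the 3 libraries of compound 32, sunitinib and DMSO (x axis), with symbols for replicates and bars for the mean ± SD (n = 3). MYBL2 averaged 273 CPM with compound 32, 49.5 CPM with sunitinib and 125 CPM with DMSO, while RBL2 was highest with sunitinib.

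The balance of B-MYB to FOXM1 transcripts differed between the treatments in the same way in every library. Counted per base of gene length, the MYBL2 to FOXM1 ratio was 1.95 ± 0.04 with compound 32, 0.576 ± 0.057 with sunitinib and 0.755 ± 0.025 with DMSO (SD, n = 3 each). Compound 32 libraries were at 1.94, 1.92 and 1.99, so MYBL2 was the more abundant of the pair in them. FOXM1 was the more abundant in the other 6 libraries, where the ratio lay between 0.529 and 0.778. These ratios do not depend on the scaling factors, and no test was made of them.

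Under sunitinib the RBL2 transcript rose while those of RBL1 and RB1 fell, and protein was not measured. RBL2, encoding the p130 of resting cells, had 34.5, 32.9 and 31.4 CPM with compound 32, 57.5, 60.5 and 46.9 CPM with sunitinib and 40.9, 36.5 and 40.5 CPM with DMSO. Sunitinib libraries were above all others, and replicate 3, which stood apart as a library, was the lowest of them. The log2 fold change was 0.48 ± 0.10 for sunitinib against DMSO (edgeR adjusted p = 0.0022) and 0.58 ± 0.07 without replicate 3. For compound 32 against DMSO it was -0.26 ± 0.10 (edgeR adjusted p = 0.0878, not called). Compound 32 libraries did not overlap the DMSO libraries, and in the fit without sunitinib replicate 3 the value of -0.25 was called (edgeR adjusted p = 0.00138). AKTIP, on the opposite strand, shares 610 of the 7320 exonic bases of RBL2 (8.3%), and had a log2 fold change of 0.48 ± 0.13 under sunitinib (edgeR adjusted p = 0.0127). No source used here says whether reads were counted by strand, so reads of the shared stretch cannot be assigned.

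RBL1, the p107 partner of E2F4 in cycling cells, had 57.3, 62.1 and 55.4 CPM with compound 32, 25.8, 24.6 and 23.3 CPM with sunitinib and 53.0, 55.3 and 56.0 CPM with DMSO. Compound 32 and DMSO libraries overlapped, and all sunitinib libraries lay below them. RBL1 fell by 1.16 ± 0.07 on the log2 scale under sunitinib (edgeR adjusted p = 6.26e-07), and its value under compound 32 was 0.09 ± 0.07, with a 95% interval of -0.07 to 0.25 (edgeR adjusted p = 0.416). The p107 to p130 transcript ratio per base of gene length was 2.18 ± 0.14 with compound 32, 0.554 ± 0.055 with sunitinib and 1.72 ± 0.14 with DMSO (SD, n = 3 each). RBL1 was thus more abundant than RBL2 in every compound 32 and DMSO library and less abundant in every sunitinib library.

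RB1, the retinoblastoma protein gene, had 179.9, 180.4 and 162 CPM with compound 32, 107, 102 and 91.7 CPM with sunitinib and 145, 133 and 139 CPM with DMSO. The groups did not overlap, in the same order as for MYBL2. Its log2 fold change was 0.33 ± 0.07 for compound 32 (edgeR adjusted p = 0.00908) and -0.47 ± 0.08 for sunitinib (edgeR adjusted p = 4.7e-04). Without DMSO replicate 2 the rise was 0.29 and not called (edgeR adjusted p = 0.0532).

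**Figure D2:**
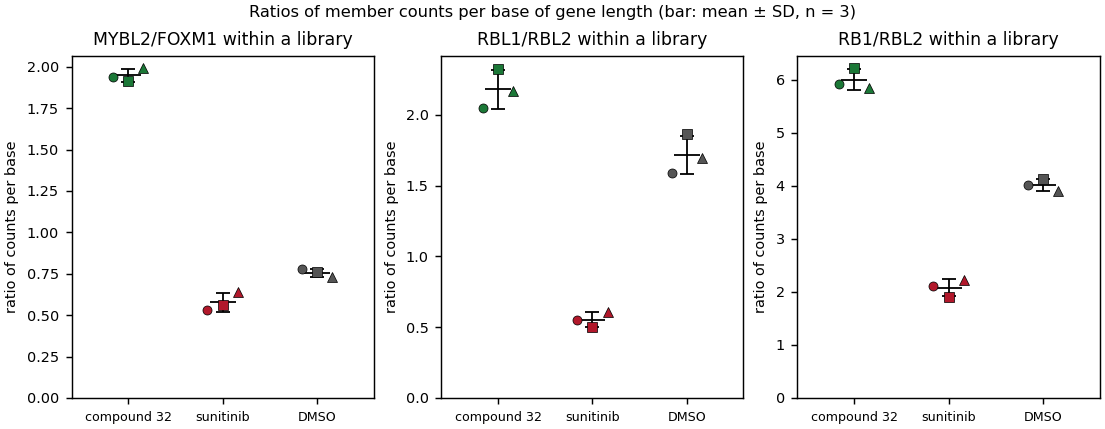
Ratio of counts per base of gene length between 2 genes of the same library (y axis, from 0) for MYBL2/FOXM1, RBL1/RBL2 and RB1/RBL2, in compound 32, sunitinib and DMSO libraries (points; bars show the mean ± SD, n = 3). RB1/RBL2 averaged 6.00 with compound 32, 2.08 with sunitinib and 4.01 with DMSO.

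Among the MuvB members, LIN54 took the order of MYBL2. This DNA-binding subunit had 41.2, 41.2 and 39.9 CPM with compound 32, 21.2, 20.5 and 21.5 CPM with sunitinib and 29.5, 31.5 and 29.6 CPM with DMSO. The 3 groups were apart, at 0.43 ± 0.07 for compound 32 (edgeR adjusted p = 0.00117) and -0.52 ± 0.07 for sunitinib (edgeR adjusted p = 1.76e-04). LIN9, a scaffold subunit that contacts B-MYB, had 13.6, 13.5 and 11.1 CPM with compound 32, 7.20, 6.45 and 8.19 CPM with sunitinib and 16.2, 15.2 and 13.4 CPM with DMSO. It fell by 1.04 ± 0.13 under sunitinib (edgeR adjusted p = 9.67e-05), while compound 32 overlapped DMSO at -0.23 ± 0.13 (edgeR adjusted p = 0.22).

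LIN52, whose phosphorylation by the kinase DYRK1A promotes DREAM assembly, had 9.50, 9.76 and 8.43 CPM with compound 32, 7.78, 6.70 and 7.15 CPM with sunitinib and 10.3, 10.9 and 10.3 CPM with DMSO. DMSO libraries were the highest and sunitinib libraries the lowest, with no overlap between groups. Sunitinib lowered it by 0.54 ± 0.11 on the log2 scale (edgeR adjusted p = 0.00281), and compound 32 gave -0.18 ± 0.11 (edgeR adjusted p = 0.269). LIN37 was near the limit of detection, with 11, 17 and 19 counts with compound 32, 33, 23 and 22 counts with sunitinib and 19, 13 and 4 counts with DMSO. Its sunitinib libraries were the highest, but the value of 1.02 ± 0.41 was not called (edgeR adjusted p = 0.0672), and that for compound 32 was 0.36 ± 0.44 (edgeR adjusted p = 0.615). Of the 2820 exonic bases of LIN37, 41.8% are shared with the antisense gene AD000671.3 and 26.7% with AD000671.1 on the same strand, which had 2 and 1 counts over all 9 libraries, and the part of shared reads in its low count was not tested.

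In all, edgeR called 5 of the 10 genes under compound 32, 4 higher (MYBL2, MYBL1, LIN54 and RB1) and 1 lower (FOXM1), where 22.3% of the 15232 tested genes were called. Under sunitinib it called 9 of the 10, 8 lower and 1 higher (RBL2), where 40.2% of all tested genes were called, 20.3% higher and 19.9% lower. When sunitinib replicate 3 was left out, 6 of 10 were called under compound 32, with RBL2 lower as well, where 42% of all genes were called. The same fit called 10 of 10 under sunitinib, with LIN37 higher beside RBL2, where 51.4% of all genes were called, 25.1% higher and 26.3% lower. In it the sunitinib log2 fold change was -1.33 for MYBL2, -1.09 for MYBL1, -1.12 for RBL1, -1.13 for LIN9, -0.53 for LIN52, -0.54 for LIN54, -0.42 for RB1 and 1.07 for LIN37. With upper-quartile factors sunitinib called 8 of the 10 lower and 2 higher, and over all genes 3952 higher and 2316 lower, in place of 3090 and 3036. The median log2 fold change of the 10 genes was 0.21 under compound 32 and -0.74 under sunitinib, beside medians over all tested genes of -0.00027 and 0.022. Groups of compound 32 and DMSO libraries did not overlap for 7 of the 10, as for 49.1% of all tested genes, and those of sunitinib and DMSO did not overlap for 10 of the 10, as for 50.8%. MYBL2, MYBL1, LIN54 and RB1 were the 4 genes called higher under compound 32 and lower under sunitinib, in comparisons that share the same DMSO libraries. Of all tested genes, 12% were called higher under compound 32 and 19.9% lower under sunitinib. The share with both calls was not counted, so whether 4 of 10 is unusual cannot be told.

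**Figure D3:**
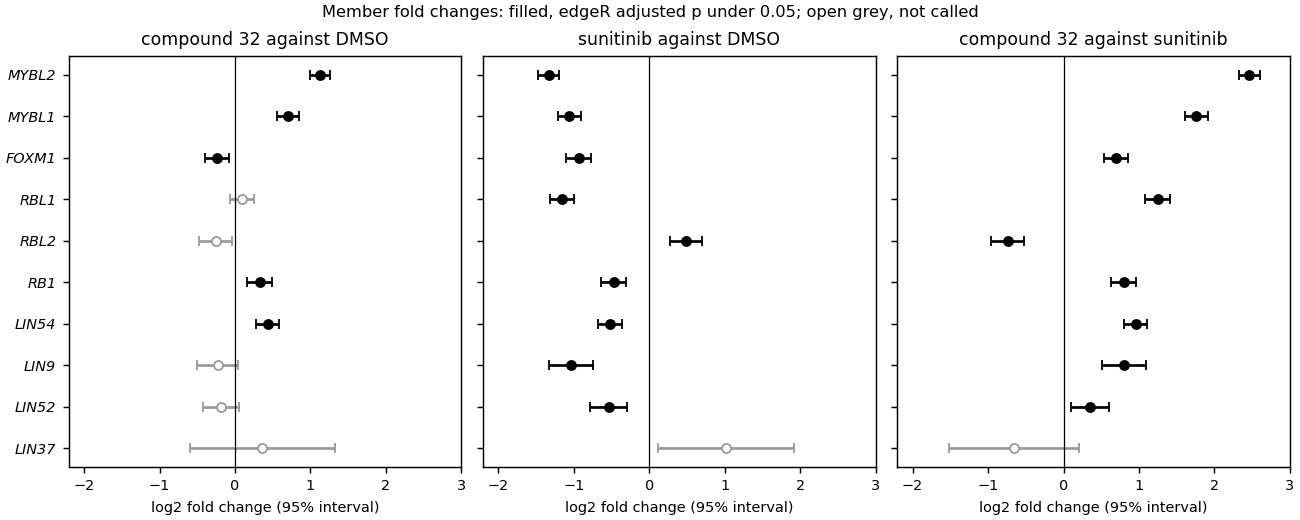
Log2 fold change (x axis) with its 95% interval for each of the 10 genes (rows) in 3 comparisons, filled where edgeR's adjusted p was under 0.05. MYBL2 stands at 1.13 for compound 32 against DMSO, -1.33 for sunitinib against DMSO and 2.46 for compound 32 against sunitinib.

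Set directly against sunitinib at the same time, compound 32 gave higher levels of 8 of the 10 genes and lower RBL2, so 9 were called where 49.2% of all tested genes were, 24.1% higher and 25.2% lower. Without sunitinib replicate 3 it was again 8 higher and 1 lower, where 58.7% of all genes were called, 29.7% higher and 29% lower. MYBL2 was 5.51-fold higher with compound 32 than with sunitinib, a log2 difference of 2.46 with a 95% interval of 2.32 to 2.61 (edgeR adjusted p = 4.83e-10). The difference was 1.76 for MYBL1, 1.25 for RBL1, 0.95 for LIN54, 0.80 for LIN9 and for RB1, and 0.70 for FOXM1, with edgeR adjusted p of at most 4.16e-04. RBL2 was lower with compound 32, at a log2 difference of -0.74 (95% interval -0.96 to -0.53, edgeR adjusted p = 8.53e-05). The groups did not overlap for any of the 10, as for 56.9% of all tested genes. Compound 32 lay above for 8, as for 27.8% of all genes, and below for RBL2 and LIN37, as for 29%. LIN52 differed by 0.35 ± 0.11 (edgeR adjusted p = 0.0226), a call lost without compound 32 replicate 1 or 2 or sunitinib replicate 2 (edgeR adjusted p = 0.0658, 0.0786 and 0.0781), with upper-quartile factors (0.0718), with library totals (0.0568), with no filter on low counts (0.0515) and with only the 6 libraries compared (0.0511). LIN37 differed by -0.66, with a 95% interval of -1.52 to 0.20, and was not called. Since doses are not given, these are differences between the treatments as applied, and the pair was the 1 pair of compounds compared.

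Genes listed as targets of the complexes were followed with 2 lists, and binding was not measured here. Of 43 G2/M genes listed as bound by B-MYB-MuvB and FOXM1, 39 fell under compound 32, where 10.3% of all tested genes were called lower. Under sunitinib 40 fell, where 19.9% of all tested genes were called lower. The median log2 fold change over all 43 was -0.80 under compound 32 and -0.80 under sunitinib, and without sunitinib replicate 3 it was -0.80 under compound 32 and -0.87 under sunitinib. The difference between these medians was not tested. With compound 32 against sunitinib, 13 of the 43 were called higher and 13 lower, with log2 differences from -1.18 to 1.37. Over all tested genes, 24.1% were called higher and 25.2% lower in that comparison. PLK1, the mitotic kinase that also activates FOXM1, had 43.8 ± 0.9 CPM with compound 32, 84.1 ± 2.7 CPM with sunitinib and 174 ± 6.94 CPM with DMSO (SD, n = 3 each). KIF20A, a kinesin of cytokinesis, fell by 2.00 ± 0.09 on the log2 scale under compound 32 and by 0.90 ± 0.08 under sunitinib, whereas ANLN, a scaffold of the contractile ring, fell by 0.25 ± 0.06 under compound 32 and by 1.30 ± 0.07 under sunitinib. CDC20, AURKA, CCNA2 and KIF11 fell under both treatments, and CDK1 fell under sunitinib (-1.05 ± 0.13) and had 0.32 ± 0.13 under compound 32 (edgeR adjusted p = 0.0975), and was called higher when sunitinib replicate 3 was left out. Under compound 32, where MYBL2 rose, 42 of the 43 values were below 0, and under sunitinib, where MYBL2 fell, 43 of 43 were. The medians over all tested genes were -0.00027 and 0.022, and the share of all genes below 0 was not counted. A link between these values and MYBL2 was not tested.

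Of 43 G1/S genes listed as bound by E2F and DREAM, 42 passed the count filter. Under compound 32, 33 of them rose, where 12% of all tested genes were called higher, and under sunitinib 42 of 42 fell, where 19.9% were called lower. The median over all 42 was 0.41 under compound 32 and -1.42 under sunitinib, beside the medians over all tested genes given above. E2F1 had 122 ± 5.33 CPM with compound 32, 16.7 ± 1.0 CPM with sunitinib and 64.6 ± 0.65 CPM with DMSO (SD, n = 3 each). RRM2, a subunit of ribonucleotide reductase, rose by 1.11 ± 0.08 under compound 32 and fell by 2.01 ± 0.08 under sunitinib. CLSPN, DTL, MCM4 and MCM10 also rose under compound 32 and fell under sunitinib, while UHRF1 fell under sunitinib (-2.05 ± 0.07) and had 0.02 ± 0.07 under compound 32 (edgeR adjusted p = 0.876). Averaged over each list, log2 CPM minus the DMSO mean was 0.49 to 0.50 for G1/S and -0.84 to -0.81 for G2/M in the compound 32 libraries, and -1.52 to -1.38 for G1/S and -0.89 to -0.73 for G2/M in the sunitinib libraries. Of the 3 sunitinib libraries, replicate 3 was the nearest to DMSO in both lists. Without it 42 of the 43 G2/M genes and 42 of the 42 G1/S genes fell under sunitinib, where 26.3% of all tested genes were called lower. Both lists were chosen with earlier results of these data known, so their directions are not independent evidence.

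**Figure D4:**
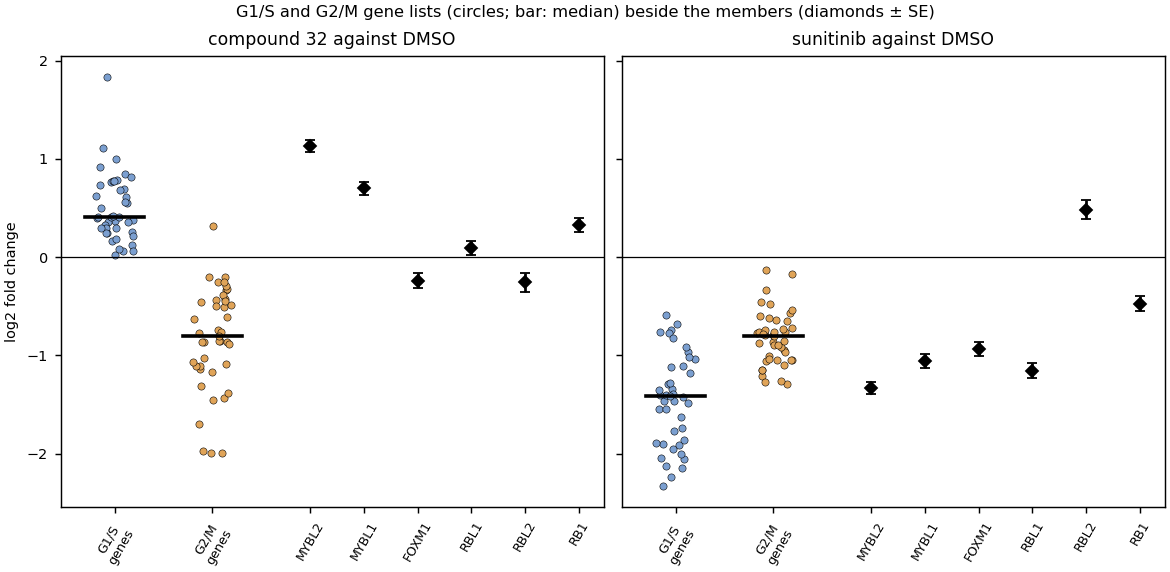
Log2 fold change against DMSO (y axis) of the 42 G1/S and 43 G2/M genes (circles, bar at the median) and of 6 regulators (diamonds ± SE), for compound 32 on the left and sunitinib on the right. Under compound 32 the medians are 0.41 and -0.80 with MYBL2 at 1.13 and FOXM1 at -0.24, and under sunitinib they are -1.42 and -0.80 with RBL2 at 0.48.

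The partners that complete DREAM changed unevenly. RBBP4, the histone-binding subunit of MuvB, had 155 CPM with compound 32, 101 CPM with sunitinib and 139.7 CPM with DMSO, and was called under sunitinib (-0.48 ± 0.07, edgeR adjusted p = 1.92e-04) and not under compound 32 (0.15 ± 0.07, edgeR adjusted p = 0.128). TFDP1, the DP partner of E2F proteins, rose by 0.29 ± 0.08 under compound 32 (edgeR adjusted p = 0.0204) and fell by 0.67 ± 0.08 under sunitinib (edgeR adjusted p = 5.69e-05), while TFDP2 was called under neither. The TFDP1 call under compound 32 was lost when any 1 of the 6 compound 32 or DMSO libraries was left out, so that 0 of the 6 partners rose. Without sunitinib replicate 3, or with only the 6 libraries compared, RBBP4 was called higher as well, and 2 of the 6 rose. Over all tested genes, 21.6% were called higher without that replicate, and 3258 of 14517 genes with only the 6 libraries. E2F5, a repressor E2F, was at 11.2 CPM with compound 32, 24.7 CPM with sunitinib and 22.2 CPM with DMSO, a fall of 0.98 ± 0.12 under compound 32 (edgeR adjusted p = 2.09e-04). E2F4 fell by 0.34 ± 0.06 under compound 32 (edgeR adjusted p = 0.00226) and by 0.19 ± 0.06 under sunitinib (edgeR adjusted p = 0.0307). The E2F4 call under sunitinib was lost without DMSO replicate 2 or 3 or sunitinib replicate 1 or 2 (edgeR adjusted p = 0.0969, 0.0664, 0.0575 and 0.0535), with only the 6 libraries compared, with library totals (-0.13) and with upper-quartile factors (-0.10). DYRK1A fell by 0.27 ± 0.08 under compound 32 (edgeR adjusted p = 0.0238), a call lost without compound 32 replicate 1 or 3 or DMSO replicate 1 or 3, and had -0.16 ± 0.08 under sunitinib (edgeR adjusted p = 0.11). Of these 6 genes, 1 rose and 3 fell under compound 32, where 12% of all tested genes were called higher and 10.3% lower. Under sunitinib 3 fell, where 19.9% of all tested genes were called lower and 40.2% in either direction. When any 1 library was left out, 2 to 3 fell under each treatment.

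Kinases, cyclins and inhibitors that set pocket protein phosphorylation were listed as 16 genes, of which 13 passed the filter, and CCNE1, CCNE2 and CDC25A are also in the G1/S list. Under compound 32, 7 rose and 1 fell, where 12% of all tested genes were called higher and 10.3% lower, and under sunitinib 3 rose and 9 fell, where 20.3% were called higher and 19.9% lower. Without sunitinib replicate 3, when 14 of the 16 were tested, 10 rose and 2 fell under compound 32 and 3 rose and 9 fell under sunitinib. In that fit 21.6% of all tested genes were called higher and 20.5% lower under compound 32, and 25.1% and 26.3% under sunitinib. The number lower under compound 32 was also 2 without compound 32 replicate 2 and with only the 6 libraries compared. CCNE2, a cyclin partner of CDK2, had 73.6 ± 3.85 CPM with compound 32, 4.96 ± 0.14 CPM with sunitinib and 20.6 ± 3.14 CPM with DMSO (SD, n = 3 each). CDK2 rose by 0.60 ± 0.08 under compound 32 and fell by 1.16 ± 0.08 under sunitinib, and CCND3 rose by 0.77 ± 0.07 under compound 32 and fell by 0.75 ± 0.07 under sunitinib. CDC25A, the phosphatase that activates CDK2, rose by 0.77 ± 0.08 under compound 32 and fell by 2.14 ± 0.09 under sunitinib. CDKN1A, the inhibitor p21, rose under both, by 1.29 ± 0.07 under compound 32 and 0.46 ± 0.07 under sunitinib. CDKN1B, the inhibitor p27, fell by 0.40 ± 0.09 under compound 32 and had -0.08 ± 0.09 under sunitinib (not called). Among the other tested inhibitors, CDKN1C, at 1.18 CPM with DMSO, and CDKN2D rose under sunitinib, by 1.13 ± 0.24 and 0.68 ± 0.16. Under compound 32 neither was called, but CDKN2D was called higher without sunitinib replicate 3. CDKN2C fell by 1.23 ± 0.14 under sunitinib and rose by 0.63 ± 0.13 under compound 32. CDKN2A, which encodes the inhibitor of CDK4 and CDK6, was at 0.04 CPM with compound 32, 0.13 CPM with sunitinib and 0 CPM with DMSO, and did not pass the filter.

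Of the third MYB gene and the FOXO factors, which oppose FOXM1 at shared forkhead sites, 1 of 4 rose under compound 32, and 1 rose and 1 fell under sunitinib. MYB was scarce, at 1.34 CPM with compound 32, 0.061 CPM with sunitinib and 0.806 CPM with DMSO, and was called under sunitinib (edgeR adjusted p = 0.00187). It did not pass the filter with only the 6 sunitinib and DMSO libraries, so its test relied on the compound 32 libraries, where it was highest. It was also not tested with a filter of at least 1 CPM in at least 3 libraries. Under both settings 0 of the 4 were lower. FOXO3 rose by 0.32 ± 0.11 under compound 32 (edgeR adjusted p = 0.049) and had -0.01 ± 0.11 under sunitinib (edgeR adjusted p = 0.933). FOXO4 rose by 0.40 ± 0.12 under sunitinib (edgeR adjusted p = 0.0187), and FOXO1 was called under neither. The FOXO4 call was lost without sunitinib replicate 3, DMSO replicate 1 or DMSO replicate 2, leaving 0 higher. The FOXO3 call was lost without sunitinib replicate 2 or any 1 of the compound 32 and DMSO libraries, again leaving 0 higher, whereas without sunitinib replicate 3 or with only the 6 libraries compared FOXO1 was called as well, giving 2 higher. These counts stand beside 12% called higher over all tested genes under compound 32, and 20.3% higher and 19.9% lower under sunitinib. Without sunitinib replicate 3, 21.6% of all tested genes were called higher under compound 32.

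Over the 9 libraries, which fall into 3 treatment groups, the genes whose log2 CPM was most like that of MYBL2 were TCF19, CCNE2 and CCND3 (Pearson r = 0.998, 0.997 and 0.996 among 15232 genes, members left out). Those nearest to RBL1 were CENPO, SMC2 and GSTCD (r = 0.997, 0.996 and 0.996), and those nearest to RBL2 were DDR2, CASC10 and SPG11 (r = 0.993, 0.99 and 0.989). FOXM1 was most like GEMIN4, NUP62 and EIF3B (r = 0.995, 0.995 and 0.992). Within the 10 genes, MYBL2 followed LIN54 (r = 0.995) and MYBL1 (r = 0.994) more closely than FOXM1 (r = 0.741), and RBL2 ran opposite to MYBL2 (r = -0.936). The 9 points share their libraries across genes, and no test was made of these values. ITFG2, which shares 781 exonic bases with FOXM1 on the opposite strand (15.9% of its exonic bases), had -0.15 ± 0.08 under compound 32 and -0.20 ± 0.08 under sunitinib and was called in neither comparison.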

How the data were processed

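The authors deposited 1 table of raw counts of reads per gene for 58735 genes and 9 libraries. Per the submitters' processing notes, fastp, HISAT2 2.0.5, featureCounts, DESeq2 and edgeR were used, with no role given, and hg38 is listed beside a mouse build. All 58735 identifiers, names and positions were those of GENCODE release 29. No source used here gives the strand setting or how shared reads were treated.

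Genes were kept with edgeR's filterByExpr (15232 genes, all 10 members) and scaled with TMM factors. A quasi-likelihood F test (robust, edgeR 4.0.16 in R 4.3.3) was run in a group-means model of the 9 libraries with 6 residual degrees of freedom, and a gene was called where its p, adjusted over all genes by Benjamini and Hochberg, was under 0.05. SE and 95% intervals come from that test. Log2 CPM used a prior count of 2. Alternatives were other factors, filters, DESeq2 1.42.0, limma voom (limma 3.58.1), a block for the replicate number, 6 libraries, a threshold of 0.01 and leaving out each library. On simulated counts of 14916 genes for compound 32 against DMSO, 57.1% of 77 changes of 1.5-fold and 79.7% of 59 changes of 2-fold were recovered. For sunitinib against DMSO (14941 genes), 43.8% of 73 and 74.2% of 62 were. Far fewer genes were changed there than were called in the data, which alters the adjusted p, so recovery in the data may differ.

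Biological replicates are stated for sunitinib and DMSO but not for compound 32, whose p-values may measure technical spread. All libraries entered the same estimate of the spread, so p-values for sunitinib against DMSO may be affected as well. No library was a copy of another, since replicates differed by more than counting noise (chi-square divided by its degrees of freedom, 1.63 or more), which does not show that they came from separate cultures. Named genes were the 10 members, 2 short lists in full, up to 4 genes of each other list with the smallest p per comparison, the genes most like 4 members, and genes overlapping a member. CDK1, CDKN1B, CDKN1C, CDKN2A, CDKN2C and CDKN2D were named after their values were seen. Members and lists were chosen with earlier results of these data known.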

Additional observations from a re-analysis of the deposited data

How the results depend on the processing

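Of 540 values of single genes under an alternative, 517 kept their direction and their side of the threshold, 16 lost a call, 6 gained one and 1 changed sign: LIN37 under compound 32 was -0.043 without DMSO replicate 3, and -0.043 to 0.88 when any 1 library was left out. Under sunitinib the number of genes called lower was 8 in each alternative that left out a library, and the number higher was 1 to 2, with 2 also under upper-quartile factors and under limma voom. Under compound 32 the number called lower, 1 in all (FOXM1), was 0 with library totals, with a threshold of 0.01 and with the replicate block, 2 with only the 6 libraries compared, and 0 to 2 when a library was left out. Libraries with the same replicate number in their titles had deviations from their group means that correlated at -0.0769 to 0.0609. Libraries with different numbers were not compared, so these values cannot decide whether libraries were paired. Sunitinib and compound 32 libraries share the letters A, B and C in their descriptions. The replicate block changed no call among the 10 genes other than that of FOXM1 (edgeR adjusted p = 0.0604). The calls of DYRK1A and FOXO3 under compound 32 and of E2F4 under sunitinib were lost with the block (edgeR adjusted p = 0.0507, 0.0572 and 0.0581). Over all genes, compound 32 against DMSO gave 1830 higher and 1571 lower, 3258 and 3114 with only the 6 libraries compared, and 977 and 738 at a threshold of 0.01, while sunitinib gave 1857 higher at that threshold in place of 3090. When a library was left out, the counts for compound 32 ran from 1168 to 3359 higher and from 968 to 3189 lower, the largest without sunitinib replicate 3. Upper-quartile factors moved the median of all genes under sunitinib to 0.10, and no member changed direction. A prior count of 0.5 gave the same 3 genes most like each of MYBL2, FOXM1, RBL1 and RBL2. LIN37 had only 4 to 33 counts in a library, and the reason for its low count was not tested.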
